A study of Homo sapiens with 24 samples.

Results

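Wnt pathway genes were described in the mRNA tables of 4 aneuploid human cell lines. The set was a list of 50 genes given by symbol, and a gene was used in a table where its mean normalized count was at least 10. Of the 50 genes, 48 reached this level in at least 1 table, out of 15168 genes that did so in all. The HCT116 5/4 table held 45 members at this level and the other three held 42 each. The other 2 members were WIF1, a secreted Wnt inhibitor that no table listed, and LGR5, a receptor and target gene listed only for RPE1 5/3 12/3, with a mean of 3.59. The lowest means listed in the tables were between 1.98 and 3.36, and an unlisted gene is therefore not shown to be at 0. The members were divided into 11 target genes (AXIN2, NKD1, LGR5, RNF43, ZNRF3, NOTUM, SP5, LEF1, TCF7, DKK1 and MYC) and 39 components of the pathway.

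Wnt proteins are secreted ligands that bind Frizzled receptors together with the coreceptors LRP5 and LRP6. Without a ligand, the destruction complex of AXIN, APC, GSK3B and casein kinase marks beta-catenin for degradation. With a ligand, Dishevelled proteins recruit this complex to the membrane, beta-catenin accumulates, and in the nucleus it displaces Groucho/TLE corepressors from TCF and LEF factors and switches on target genes. Many targets are feedback inhibitors: AXIN2 rebuilds the destruction complex, RNF43 and ZNRF3 remove Frizzled from the membrane, NKD1 binds Dishevelled, NOTUM strips the lipid from Wnt ligands and DKK1 blocks LRP. In the colon the pathway maintains the stem cells of the crypt, and most colorectal cancers carry a lesion that activates it. HCT116 is known to carry an activating mutation of beta-catenin itself.

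HCT116 is a near-diploid colon carcinoma line and RPE1 a line of retinal pigment epithelial cells immortalized with hTERT. A total of 4 parental lines were sequenced, namely HCT116, HCT116 that expresses histone H2B fused to GFP, RPE1 hTERT and RPE1 hTERT with H2B-GFP, and from each of them 1 aneuploid line. HCT116 5/4 carried 4 copies of chromosome 5, HCT116 H2B-GFP 8/3 c7 was a single clone with 3 copies of chromosome 8, RPE1 5/3 12/3 had 3 copies of chromosome 5 and a spontaneously gained extra copy of chromosome 12, and RPE1 H2B-GFP 21/3 had 3 copies of chromosome 21. HCT116 5/4 and its parental line were provided by another laboratory, and extra chromosomes were introduced into the other lines by microcell-mediated transfer. Each line had 3 libraries, 24 in all. Every table gives a single mean over the 3 aneuploid and 3 parental libraries together, and each table was normalized on its own. No single library was used here, so the means carry no SD and no comparison below has a test over replicates. Aneuploidy, clone, H2B-GFP, source of the line and sequencing run cannot be told apart between tables, and in bulk RNA fewer expressing cells and less RNA per cell cannot be told apart either.

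The labelled origins were checked against markers. EPCAM, CDH1, CDX2 and KRT20 had a mean of at least 10 in both HCT116 tables and in neither RPE1 table, whereas the colorectal markers CDX1, VIL1 and CEACAM5 were not listed in any table, LGALS4 and GPA33 were under 10, and KRT8 was listed in all. These 10 genes summed to 69466 and 68334 in the HCT116 tables and to 19623 and 16721 in the RPE1 tables, most of it from KRT8 (63210, 59668, 19618 and 16721). The pigment epithelium regulators MITF, with means of 1439 and 1124 in the RPE1 tables against 67.4 and 62.0 in the HCT116 tables, and OTX2 marked RPE1, as did BEST1 at low means, and the 10 pigment epithelium genes summed to 2286 and 1625 there against 511 and 452. The pigment cell genes TYR and TYRP1 and the pigment epithelium gene TTR were listed in no table. PMEL and SERPINF1 had higher means in HCT116, and RPE65, the retinoid isomerase of this tissue, was also higher in the HCT116 tables (287 and 194) than in the RPE1 tables (10.4 and 4.58). The 5 mesenchymal genes of cultured RPE1 summed to 597714 and 539160 in the RPE1 tables and to 2965 and 1888 in the HCT116 tables.

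To compare the origins, the separately normalized tables were scaled to an equal sum over the 11939 genes that reached a mean of 10 in every one. A gene was counted as higher or lower in HCT116 when both HCT116 tables lay at least 2-fold above or below both RPE1 tables. Of the 36 members compared, 12 were higher in HCT116, against 15.1% of all genes, and 4 were lower, against 7.75%. These 12 were TLE2, KREMEN1, FZD3, AXIN2, DKK1, TNIK, TCF7L1, ZNRF3, WNT7B, TCF7L2, MYC and BCL9, and the 4 lower were LGR4, FZD2, FZD4 and PORCN. With this scaling the median gene was itself 0.32 higher in HCT116 on the log2 scale, and differences below are therefore given relative to it. Scaled by the median of ratios, the calls over all genes turned from 66.0% higher to 46.7% higher, with 9.52% of genes higher and 10.9% lower. Among the members 11 were then higher and 4 lower, and MYC was the 1 call lost.

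Another 12 members reached a mean of 10 in some tables only. RNF43, NKD1, NKD2, WNT16, SP5 and NOTUM did so in both HCT116 tables and in no RPE1 table, a pattern of 9.28% of the 14554 genes classed. LEF1, WNT5A and TLE4 did so in both RPE1 tables and no HCT116 table (5.3% of genes), and DKK3, FZD8 and WNT5B in both RPE1 tables and in that of HCT116 5/4 (1.46% of genes). No fold between the origins is given for these genes.

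**Figure D1:**
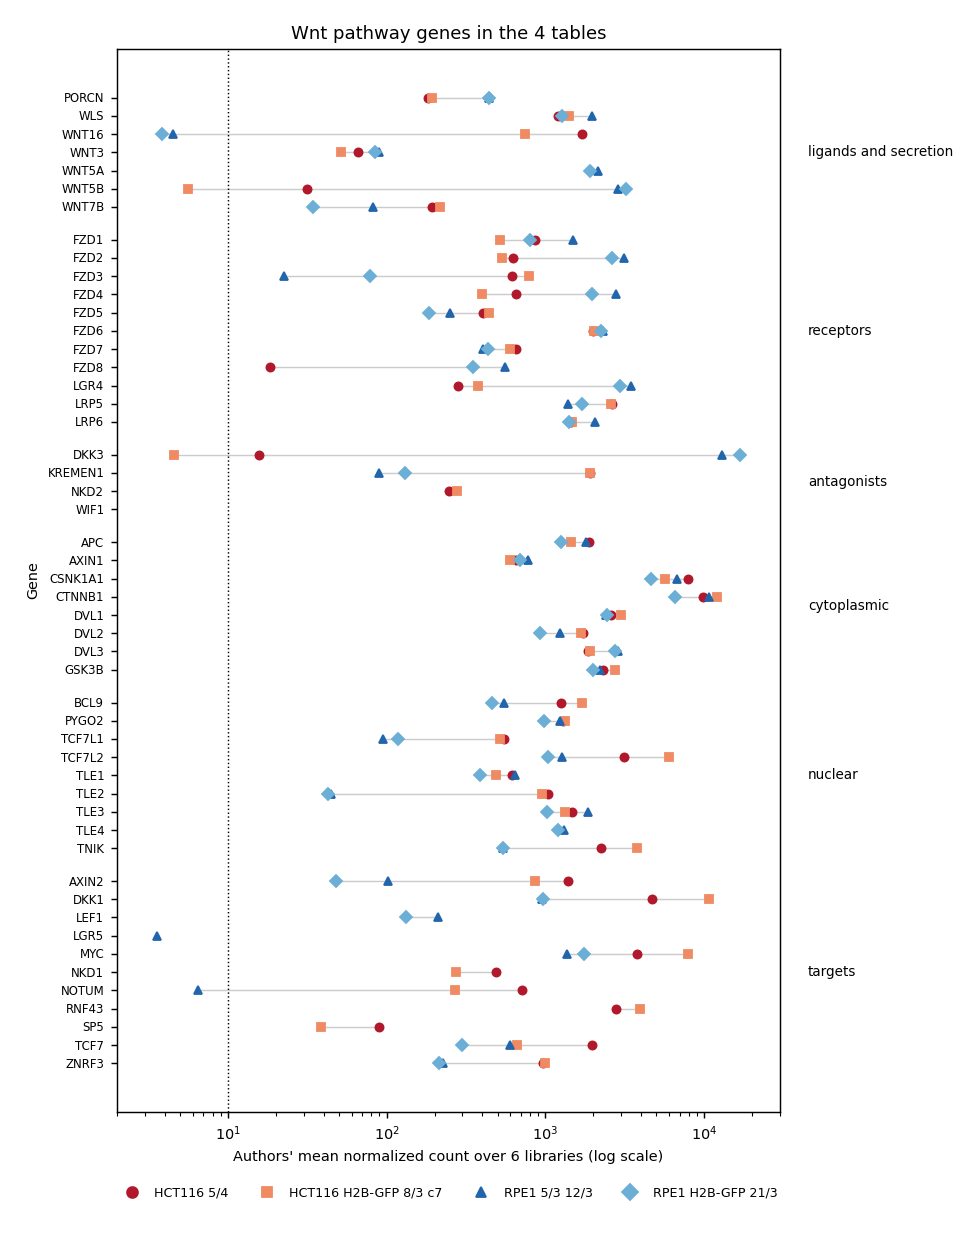
The authors' mean normalized count over 6 libraries (log x axis) is plotted for the 50 members, grouped by role, with 1 symbol per table; unlisted values are not drawn and the dotted line marks the minimum of 10. Cytoplasmic components such as CTNNB1 and GSK3B cluster closely over the 4 tables, whereas DKK3, WNT5B and WNT16 are spread over orders of magnitude.

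The target genes of the list, chosen with earlier results of these data known, were mostly more abundant in the HCT116 tables. Some known targets outside the list, given below, did not share this direction. Of the 5 targets compared, 4 were higher in HCT116, against 15.1% of all genes, and none was lower, against 7.75%. A further 4 of the 11 were seen at a mean of 10 only there (9.28% of genes classed), and 1, LEF1, only in RPE1 (5.3%). The median target lay 1.89 above the median gene on the log2 scale and all 5 lay above it. For the 31 components compared the median was -0.01, with 14 above and 17 below the median gene. Of these components 8 were called higher and 4 lower, against the same 15.1% and 7.75% of all genes.

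AXIN2, the negative feedback scaffold that is often used as a readout of the pathway, had means of 1380 for HCT116 5/4, 857 for HCT116 H2B-GFP 8/3 c7, 102 for RPE1 5/3 12/3 and 48.2 for RPE1 H2B-GFP 21/3. Both HCT116 means lay above both RPE1 means, and relative to the median gene the difference was 3.69, or 12.9-fold. Per kilobase of exons, AXIN2 moved from percentile 77.0 and 64.4 of all genes in the HCT116 tables to 22.5 and 16.0 in the RPE1 tables.

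The ubiquitin ligase RNF43 had means of 2773 and 3918 in HCT116 5/4 and HCT116 H2B-GFP 8/3 c7 and was not listed for either RPE1 line. Its paralogue ZNRF3, with the same role, was listed in all tables with means of 965, 995, 226 and 214, in the order in which AXIN2 was given, which is kept below. Its HCT116 means were 3.72-fold above those of RPE1, relative to the median gene, with a narrow range over the 4 pairs of tables (log2 1.78 to 2.01). Of the 2 ligases RPE1 thus had ZNRF3 alone at a mean of 10, and HCT116 had more of both.

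NKD1, a Dishevelled-binding inhibitor, had means of 485 and 273 in the HCT116 tables and was unlisted for RPE1. NOTUM, the secreted Wnt deacylase, had means of 712 and 270 against 6.44 in RPE1 5/3 12/3 and no listing in RPE1 H2B-GFP 21/3. SP5, a zinc finger factor that restrains the same targets, had means of 89.0 and 38.5 and was unlisted for RPE1. All 3 feedback genes were thus seen in HCT116, and each had its higher mean in the HCT116 5/4 table.

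DKK1, a secreted antagonist that binds LRP6, had means of 4666, 10643, 947 and 969. It was 6.13-fold higher in HCT116 relative to the median gene, and per kilobase its percentile was 98.2 and 99.4 in HCT116 and still 84.9 and 88.1 in RPE1. MYC, the growth-promoting transcription factor, had means of 3759, 7872, 1372 and 1741, a relative difference of 1.55 with pairs from 0.74 to 2.36. The lowest of these pairs is below a doubling relative to the median gene, and the MYC call rests on the scaling as given above.

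The factor genes among the targets did not share 1 direction. TCF7, which encodes TCF1, had means of 1964, 662, 599 and 296, and the pairs of tables differed by -0.01 to 2.36, so that the lower HCT116 mean and the higher RPE1 mean were level relative to the median gene. LEF1, its relative, had means of 210 and 132 in the RPE1 tables and was unlisted for HCT116, the reverse of the feedback inhibitors.

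**Figure D2:**
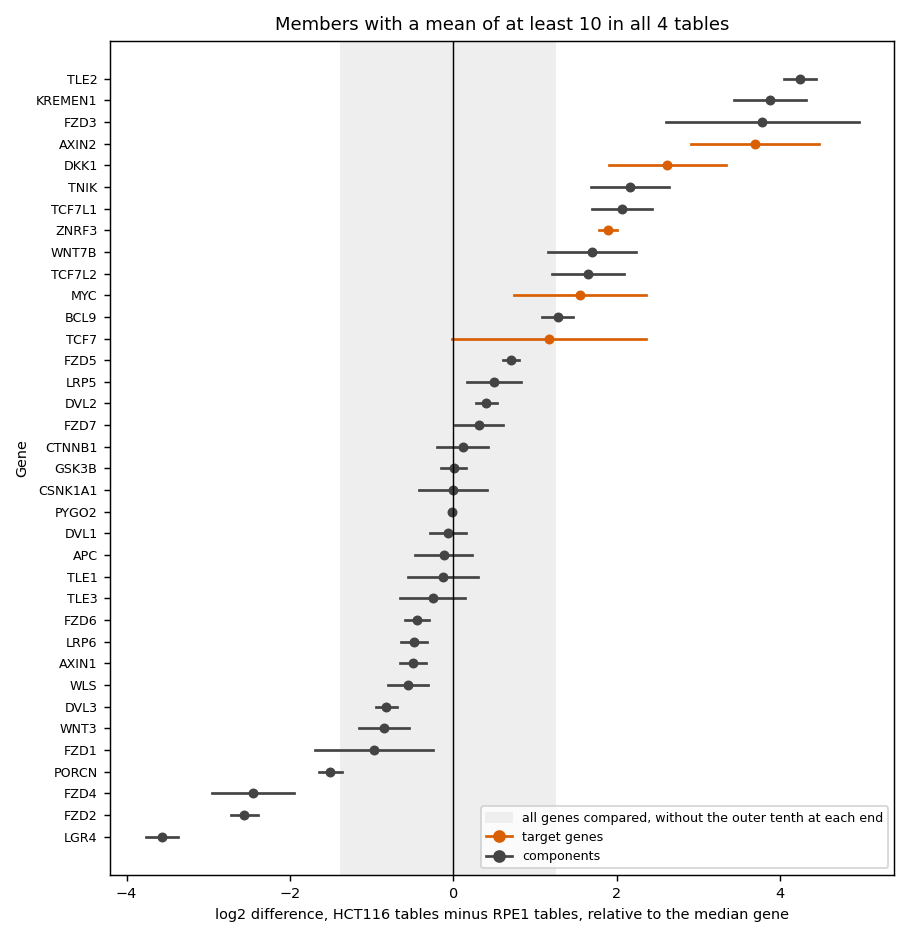
The log2 difference between HCT116 and RPE1 tables, relative to the median gene (x axis), is shown for the 36 members that reach a mean of 10 in all tables; points are means over the 4 pairs of tables, bars run from the lowest to the highest pair and the grey band, from -1.37 to 1.24, holds all genes but the outer 10% at each end. The 5 target genes, in orange, lie to the right of 0 in the mean, with the TCF7 bar reaching it, and components lie on both sides.

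Promoter windows were read for motifs because several targets had like patterns. RefSeq windows of 250 bases before to 50 bases after the start were found for 36 of the 50 members (51 windows, GRCh38.p14). None was found for AXIN2, DKK3, FZD2, FZD3, FZD6, FZD7, KREMEN1, LGR5, LRP6, MYC, NKD1, NOTUM, WNT7B and ZNRF3. The words searched were CTTTGAA and CTTTGAT, which TCF and LEF factors are known to bind, on both strands (TTCAAAG and ATCAAAG); the words do not overlap another motif searched. Matches were present for SP5, DKK1 and TLE4, 3 of the 36 members or 8.33%, against 8.35% of 27305 genes. The window of SP5 held 3 matches, as many as or more than all but a few windows, since 9 of 35116 (0.0256%) held 3 or more. The sequences shown are the 250 bases before the start, 5′ to 3′, with each match in capitals; SP5 and DKK1 are targets on the HCT116 side and TLE4 a corepressor seen only in RPE1. The positions are chr2:170715087-170715336 for SP5, chr10:52314031-52314280 for DKK1 and chr9:79572927-79573176 for TLE4, all on the plus strand of GRCh38.p14.
SP5: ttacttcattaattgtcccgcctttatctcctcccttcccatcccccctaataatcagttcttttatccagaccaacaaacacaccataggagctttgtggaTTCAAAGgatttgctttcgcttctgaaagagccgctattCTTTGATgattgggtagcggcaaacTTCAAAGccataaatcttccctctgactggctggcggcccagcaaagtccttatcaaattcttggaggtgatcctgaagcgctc
DKK1: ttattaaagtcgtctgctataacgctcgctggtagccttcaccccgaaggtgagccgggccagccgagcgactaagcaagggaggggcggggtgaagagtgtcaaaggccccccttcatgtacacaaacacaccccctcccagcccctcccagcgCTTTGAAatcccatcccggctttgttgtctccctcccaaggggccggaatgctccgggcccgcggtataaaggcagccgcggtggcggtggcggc
TLE4: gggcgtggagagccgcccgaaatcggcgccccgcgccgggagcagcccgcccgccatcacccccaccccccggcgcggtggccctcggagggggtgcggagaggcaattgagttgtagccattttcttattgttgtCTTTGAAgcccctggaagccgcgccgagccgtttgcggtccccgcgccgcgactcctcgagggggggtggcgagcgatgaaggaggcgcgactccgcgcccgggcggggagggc
In SP5 the matches ran from -148 to -142, -109 to -103 and -84 to -78, counted from the start of the gene, in DKK1 from -95 to -89 and in TLE4 from -114 to -108. A match of letters is no evidence of a bound site.

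The ligands differed between the origins in kind. Of the 7 genes for ligands and their secretion, 4 could be compared. Of these, 1 was higher and 1 lower in HCT116, against 15.1% and 7.75% of all genes. WNT16, a ligand known from bone and skin, had means of 1695 and 746 in the HCT116 tables and only 4.49 and 3.84 in the RPE1 tables. WNT5A, the main ligand of the beta-catenin-independent branch, had means of 2154 and 1900 in RPE1 and was unlisted for HCT116. WNT5B, its close paralogue, had means of 31.7, 5.60, 2876 and 3233. WNT16 and the WNT5 pair thus had opposite patterns. WNT7B, a canonical ligand, had means of 193, 218, 81.6 and 34.1 and was called higher in HCT116, at 3.24-fold. WNT3 was low everywhere, with means of 65.6, 51.5, 89.7 and 84.7, and had no call.

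The machinery that all Wnt ligands need was present in both origins. PORCN, the acyltransferase that attaches their lipid, had means of 182, 191, 443 and 443 and was 2.84-fold lower in HCT116. WLS, which carries the lipidated ligand to the surface, had means of 1199, 1397, 1963 and 1278 and no call.

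Per kilobase of exons, and over the members with a mean of at least 10, WNT16 made up 90.0% and 81.4% of the summed level of the WNT genes of the list in the HCT116 tables. In the RPE1 tables WNT5B made up 67.0% and 72.6% and WNT5A 29.8% and 25.3%. WNT genes outside the list are not in these sums, so shares among all WNT genes would be lower. In HCT116 5/4 and HCT116 H2B-GFP 8/3 c7, WNT10B stood at 55.9 and 81.9 per kilobase, WNT3A at 64.8 and 41.9 and WNT6 at 66.8 and 23.0. WNT16 stood at 519 and 229.

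Among the receptors, 3 were lower and 1 was higher in HCT116 of the 10 compared, against 7.75% and 15.1% of all genes. FZD2 had means of 628, 535, 3113 and 2614 and was 5.90-fold lower in HCT116 relative to the median gene. FZD4, which also serves as receptor for Norrin in the retina, had means of 653, 401, 2783 and 1959, a 5.47-fold difference in the same direction. FZD8 had means of 555 and 348 in the RPE1 tables and 18.5 in that of HCT116 5/4, and was unlisted for HCT116 H2B-GFP 8/3 c7. FZD2 and FZD4 were among the 3 receptors called lower, and no fold between the origins is given for FZD8.

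FZD3, a receptor of the planar polarity branch, went the other way, with means of 614, 783, 22.5 and 78.2 and a 13.8-fold higher level in HCT116. Its RPE1 means were 2.08 apart on the log2 scale, the widest gap between 2 tables of RPE1 for any member. The others had no call: FZD1 (860, 515, 1490 and 794), FZD5 (405, 440, 251 and 186), FZD6 (1999, 2015, 2319 and 2231) and FZD7 (655, 600, 406 and 436). FZD6 was thus nearly level over all tables.

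LGR4, the receptor for the R-spondins that protect Frizzled from RNF43 and ZNRF3, had means of 281, 374, 3468 and 2963. It was 11.9-fold lower in HCT116 and had the lowest relative difference of the members compared, at -3.57. It was also the single LGR gene of the list at a mean of 10 in any table. The coreceptor genes had no call, with means of 2629, 2603, 1391 and 1709 for LRP5 and of 1453, 1477, 2057 and 1414 for LRP6, and LRP5 was the more abundant of the pair per kilobase in every table, at 53.1% to 75.2% of their sum.

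The leading Frizzled gene changed with the origin. Per kilobase, FZD6 made up 43.9% and 48.8% of the summed level of the listed Frizzled genes in the HCT116 tables, ahead of FZD2 at 14.8% and 13.9%. In the RPE1 tables FZD2 led with 36.6% and 37.7%, followed by FZD6 at 25.4% and 29.9%.

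Of the remaining antagonists, KREMEN1, a receptor through which DKK1 clears LRP6, had means of 1900, 1913, 89.7 and 130.9, 14.7-fold higher in HCT116. NKD2, the relative of NKD1, was seen in HCT116 alone, with means of 246 and 277. DKK3, a divergent member of the Dickkopf family that does not act on LRP as DKK1 does, had means of 15.7 and 4.59 in HCT116 against 12922 and 16744 in RPE1. DKK1 therefore made up at least 99.9% of the per-kilobase level of the pair in the HCT116 tables and DKK3 71.7% and 76.2% in the RPE1 tables. DKK3, WNT5B and FZD8 reached the minimum mean in the HCT116 5/4 table but not in the other HCT116 table. They were grouped by this pattern, so their higher level in HCT116 5/4 follows from the grouping. Of the 5 mesenchymal genes of RPE1, 4 had a higher mean in the HCT116 5/4 table. These were VIM (481 against 106), FN1 (1210 against 677), SPARC (579 against 257) and CDH2 (5.02 against no listing). COL1A1 was the exception (690 against 848). After scaling, 6883 of the 13570 genes compared between the HCT116 tables were higher in HCT116 5/4. The part of the mesenchymal genes in these results was not tested.

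None of the 8 genes of the cytoplasmic core was called in either direction (77.2% of all genes compared had no call), and their median was -0.04 relative to the median gene. CTNNB1, the gene of beta-catenin, had means of 9836, 11962, 10637 and 6564, a relative difference of 0.11 with pairs on both sides of 0. Its level per kilobase lay between percentiles 91.2 and 95.2 of all genes in each table. Of the destruction complex, APC (1891, 1443, 1787 and 1251) was at -0.12, GSK3B (2301, 2748, 2215 and 1979) at 0.00 and CSNK1A1, casein kinase 1 alpha (7927, 5629, 6768 and 4610), at -0.00, each with pairs on both sides of 0. AXIN1 (656, 598, 780 and 691) was at -0.49, with all 4 pairs below the median gene (-0.65 to -0.33). The Dishevelled genes differed by -0.07 for DVL1, 0.41 for DVL2 and -0.82 for DVL3. AXIN2 and AXIN1 therefore exchanged their order per kilobase: AXIN2 made up 75.3% and 67.5% of the pair in the HCT116 tables, and AXIN1 84.1% and 90.8% in the RPE1 tables.

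The nuclear components had a median of 1.46 above the median gene. Of the 8 compared, 5 were higher in HCT116 and none lower, against 15.1% and 7.75% of all genes. TCF7L2, which encodes TCF4, the main TCF of intestinal epithelium, had means of 3135, 6001, 1279 and 1042, a 3.13-fold difference. TCF7L1, a mostly repressive TCF, had means of 546, 518, 95.1 and 118.1 and differed by 4.19-fold. TNIK, a kinase that binds TCF4, had means of 2241, 3768, 542 and 542 and differed by 4.47-fold. BCL9, an adaptor that links beta-catenin to Pygopus, had means of 1253, 1703, 551 and 458 and differed by 2.43-fold. Its partner PYGO2, with means of 1284, 1333, 1237 and 981, was within 0.05 of the median gene in all 4 pairs.

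Of the corepressors, TLE2 and TLE4 had opposite patterns between the origins. TLE2 had means of 1030, 949, 44.8 and 42.4 and, at 18.9-fold higher in HCT116, the highest relative difference of the members compared (log2 4.24). TLE4 had means of 1316 and 1191 in RPE1 and was unlisted for HCT116. TLE1 (618, 487, 643 and 388) and TLE3 (1466, 1323, 1860 and 1027) had no call. Per kilobase TLE2 led the listed TLE genes in HCT116 with 51.5% and 53.7%, and TLE4 in RPE1 with 36.2% and 46.5%. Outside the list, TLE6 had means of 170, 180, 6.82 and 9.83. AES, at 1109, 962, 1313 and 1053 per kilobase, had no call. TCF7L2 led the TCF and LEF family in all 4 tables, with 59.4%, 83.0%, 61.3% and 65.7%.

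**Figure D3:**
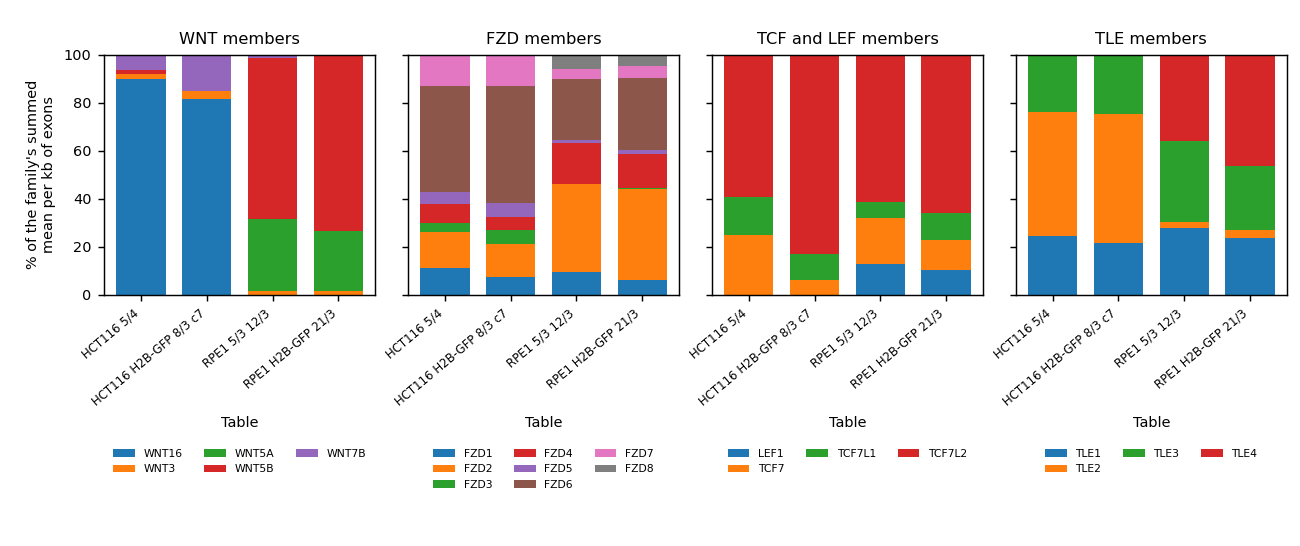
The share of each gene in the summed mean per kilobase of exons of the listed members of its family (y axis, percent) is stacked, with 1 bar per table. The WNT, FZD, TCF and LEF, and TLE members with a mean of at least 10 are shown, and genes outside the list are left out. WNT16, FZD6 and TLE2 take the most of their bars in HCT116 and WNT5B, FZD2 and TLE4 in RPE1, while TCF7L2 leads in all 4 tables.

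Tables of the same origin were then compared with each other. A total of 5 of 42 members were at least 2-fold apart between the HCT116 tables, against 4.67% of all genes. TCF7 (1.64 on the log2 scale), NOTUM (1.47), SP5 (1.28) and WNT16 (1.26) were higher in the HCT116 5/4 table, where 3.14% of all genes were, and DKK1 (-1.12) was lower, as were 1.53% of all genes. NKD1 (0.90) and AXIN2 (0.76) leaned to HCT116 5/4 and MYC (-0.99) to HCT116 H2B-GFP 8/3 c7, while ZNRF3 (0.03) was level and RNF43 was at -0.43. The 9 targets had a median of 0.76 with 6 above 0, and the 33 components a median of 0.06 with 21 above 0. The targets thus did not move together between the HCT116 tables, and DKK1 and MYC went opposite to AXIN2, NOTUM and SP5.

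Between the RPE1 tables a single member, of 42, was at least 2-fold apart, against 2.97% of all genes. This was FZD3, lower in RPE1 5/3 12/3 by the gap given above, as were 1.7% of all genes by 2-fold or more, and no member was higher, against 1.27%. The 6 targets listed had a median of 0.10, with AXIN2 at 0.80, TCF7 at 0.73, LEF1 at 0.39 and DKK1, MYC and ZNRF3 below 0. WNT7B was next to the 2-fold limit, at 0.98 higher in RPE1 5/3 12/3.

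**Figure D4:**
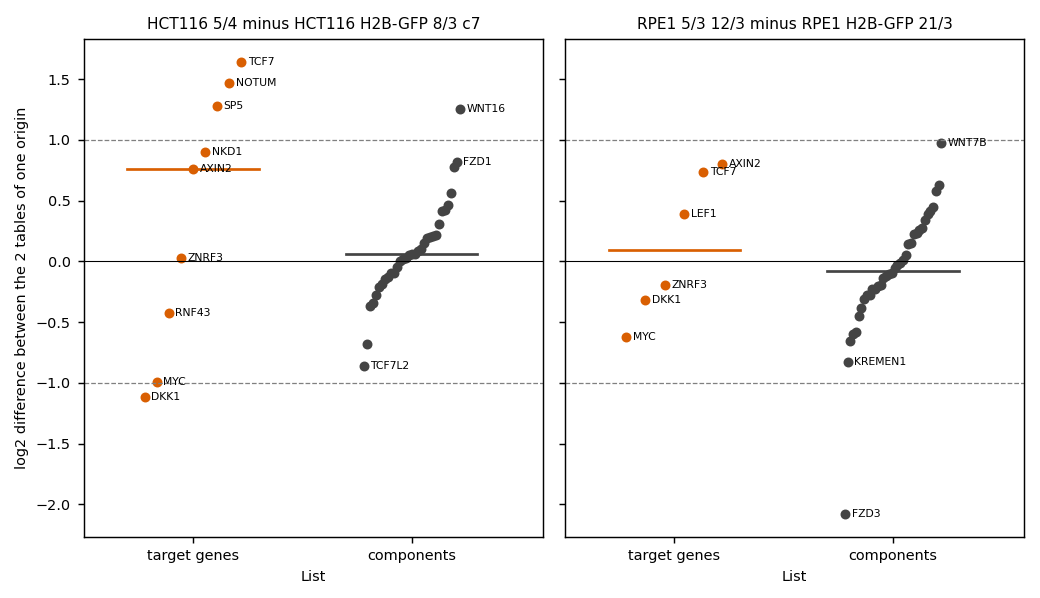
The log2 difference between the 2 tables of one origin (y axis) is shown for target genes and components with a mean of at least 10 in both; each point is a gene, short lines are medians and dashed lines mark 2-fold. TCF7, NOTUM, SP5, WNT16 and DKK1 lie beyond the dashed lines for HCT116, and FZD3 alone for RPE1.

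Some members lie on the gained chromosomes. Because each mean holds parental libraries too, a gain shows only in part, and each member was set beside the median gene of its chromosome in the same pair of tables. On chromosome 5 the median of 557 genes was 0.46 higher in HCT116 5/4 than in the other HCT116 table, and APC (0.46) and CSNK1A1 (0.57) were close to it. TCF7 on the same chromosome, at 1.64, was at percentile 93.9 of these genes, and NKD2, at -0.10, was at percentile 15.1. For RPE1 5/3 12/3 the median on chromosome 5 was 0.28 over 590 genes, with APC at 0.23, CSNK1A1 at 0.27 and TCF7 at 0.73, percentile 91.2. TCF7 was thus far above the median of its chromosome in both tables with a gain of chromosome 5. APC, at 5:112043215-112181936, TCF7, at 5:133450372-133487556, and CSNK1A1, at 5:148872545-148931034 on GRCh37, lie on the long arm.

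On chromosome 8 the median of 437 genes was 0.14 higher in HCT116 H2B-GFP 8/3 c7. FZD3 (0.28) and FZD6 (-0.06) were near it, and MYC (0.99) was at percentile 97.3. On chromosome 12 the median of 663 genes was 0.28 higher in RPE1 5/3 12/3, with LRP6 at 0.26 and WNT5B at -0.45, percentile 3.92. No member lies on chromosome 21.

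A further 64 genes of the pathway were examined, of which 34 could be compared. Of these, 4 were higher and 3 lower in HCT116, against 15.1% and 7.75% of all genes. Their median was -0.06 relative to the median gene. SFRP1, a secreted decoy that binds Wnt ligands, had means of 37.9, 104, 75332 and 54455. DKK3 was not among the members compared, and SFRP1, at -10.25, exceeded each of those in size. BAMBI (-2.78), a decoy receptor of TGF-beta signalling and a known Wnt target, and ROR1 (-2.58), a receptor for WNT5A, were lower as well. EPHB3 (2.79), an ephrin receptor and target gene of the crypt, KREMEN2 (1.77), the paralogue of KREMEN1, and HHEX (1.65), a homeobox repressor, were higher, and WNT10B was the fourth. Another 11 genes had a mean of 10 in both HCT116 tables alone, a pattern of 9.28% of all genes classed. Among them were ROR2 (663 and 654) and the canonical ligand WNT3A (194 and 125), named after their values were seen. In both RPE1 tables alone, a pattern of 5.3% of genes, stood RSPO3 (290 and 19.98), an R-spondin, and DKK2 (14.0 and 12.2). Of the widely cited targets, CCND1 (19537, 16627, 22315 and 24156) and CD44 (28115, 24578, 38809 and 26254) had no call. They lay below the median gene, at -0.63 and -0.54. Of the other targets examined, SOX9 (0.92), TNFRSF19 (0.30) and EPHB2 (-0.86) had no call either, and ASCL2 and APCDD1 were unlisted throughout. Known targets outside the list thus went both ways, with EPHB3 higher and BAMBI lower in HCT116.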

How the data were processed

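Total RNA of 24 libraries, 3 per line, was sequenced. Per the labels and methods, the authors trimmed reads with cutadapt, mapped them to hg19 with TopHat2 2.0.10, counted them on RefSeq exons with featureCounts 1.4.3 and normalized them with DESeq2. The deposited signal is the authors' mean normalized count over the 6 libraries of each comparison. The other columns (log2 fold change, its standard error, Wald statistic and p-values of the authors' comparisons) were not used. Sequencing depth per library is unknown from these tables, so no interval is given.

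Means were scaled to an equal sum over genes that reached a mean of 10 in every table and compared on the log2 scale without a pseudocount. Levels between genes are per kilobase of the union of exons (GENCODE 44 on GRCh37, the build of hg19), with 94.7% to 95.2% of genes placed by symbol or synonym. These exons are not the RefSeq exons counted. The rule for calls was tried on simulated data with differences larger than 2-fold, scaled by the median of ratios. The simulation thus does not check calls near 2-fold or the equal-sum scaling. All 50 members are named, and of the other pathway genes the 6 largest differences. Further ones are named for their call, their pattern or wide citation, some of them chosen after their values were seen. Members, lists and targets were chosen with earlier results of these data known. Alternatives were other scalings, minimum means, folds, target lists and lengths. Python 3.11.15, numpy 2.4.6 and pandas 2.3.3 were used.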

Additional observations from a re-analysis of the deposited data

How the results depend on the processing

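Of 61 values recomputed under an alternative, 50 stayed within 1.5 times the count or the spread between tables. The members higher in HCT116 numbered 8 to 14 and those lower 3 to 6. Scaled by the median of ratios, the median log2 difference of the targets, 2.21 before the median gene is subtracted, was 1.90, and that of the components went from 0.30 to -0.010. The gap between the lists, 1.91, cannot move with the scaling, which shifts every gene alike. With LGR5, RNF43, ZNRF3, TCF7 and LEF1 counted as components the targets' median was 2.93 and the gap 2.62, and without MYC they were 2.57 and 2.27; these alternatives change which genes enter the median. The count of members 2-fold apart between the RPE1 tables, 1, was 2 with the sum taken outside chromosomes 5, 8, 12 and 21, 0 with a mean of at least 50, and 9 at 1.5-fold. Between the HCT116 tables it went from 5 to 12 at 1.5-fold and 1 at 3-fold. With the longest transcript as length, the leading gene was the same in the 35 combinations of family and table that held 2 or more members; another 7 held a single one. No paired analysis was possible because the tables hold no values of single libraries, for which reason no replicate could be left out either. Means under 10, such as those of WNT16 in RPE1 and DKK3 in HCT116 H2B-GFP 8/3 c7, rest on few reads.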

Other observations

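Several further pathway genes differed between tables of the same origin, and were chosen after their values were seen. RSPO3, an R-spondin ligand of LGR4, had a mean of 290 in RPE1 5/3 12/3 and 19.98 in RPE1 H2B-GFP 21/3, 3.58 apart on the log2 scale, and was unlisted for HCT116. WNT6 had means of 115 and 39.6 in HCT116 5/4 and HCT116 H2B-GFP 8/3 c7. WNT7A had a mean of 16.1 in HCT116 5/4 and 3.49 in the other HCT116 table. DKK4, a Dickkopf antagonist whose gene lies on chromosome 8, was listed for HCT116 H2B-GFP 8/3 c7 alone, with a mean of 27.1.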
